A study of Mus musculus with 7 samples.

Results

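The TGF-beta and BMP signalling genes described here are 10 genes: the ligand genes Tgfb1, Tgfb2, Tgfb3, Inhba and Bmp4, the receptor genes Tgfbr1, Tgfbr2 and Tgfbr3, the latency gene Ltbp1 and the target gene Tgfbi. They were chosen by name, with earlier results of these data known. Every probe set annotated to 1 of them was taken, which gave 19 of the 22690 probe sets on the array. The arrays were made from cells labelled as mouse embryonic fibroblasts, a primary cell type grown from embryos. There were 4 arrays of p53-/- Dnmt1-/- cells (p53-Dnmt1-null), which lack both the maintenance DNA methyltransferase and p53: untreated, after 24 h and 48 h of TSA, and 2 weeks after TSA removal. There were 3 arrays of p53-/- cells (p53-null): without TSA and at 24 h and 48 h of it. TSA is trichostatin A, an inhibitor of histone deacetylases. All 7 arrays therefore share the loss of p53, and no array of cells with p53 was part of the series. Each group held 1 array, so no group had a replicate. The labels name no clone, embryo, allele or TSA dose.

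TGF-beta family ligands are secreted dimers that bring together a type II and a type I receptor kinase on the cell surface, and the active type I receptor phosphorylates Smad proteins, which enter the nucleus and regulate transcription. TGF-beta itself is secreted in a latent form tied to the matrix by latent TGF-beta binding proteins, and activins and BMPs use related receptors and are held in check by secreted antagonists. In fibroblasts TGF-beta is a known inducer of collagen and other matrix genes, and BMP4 patterns the mesenchyme of the embryo.

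The promoters of 4 of these genes are shown because Dnmt1, the enzyme missing in 1 of the 2 genotypes, methylates CG dinucleotides. They are those of the 3 genes whose main probe sets differed most between genotypes (Tgfbi, Ltbp1 and Inhba), and of Tgfb1, which was not called. Each line gives the 250 bases before the first annotated start, 5' to 3', from RefSeq on build GRCm38.p6, with every CG in capitals.
Tgfbi, chr13:56609336-56609585, plus strand: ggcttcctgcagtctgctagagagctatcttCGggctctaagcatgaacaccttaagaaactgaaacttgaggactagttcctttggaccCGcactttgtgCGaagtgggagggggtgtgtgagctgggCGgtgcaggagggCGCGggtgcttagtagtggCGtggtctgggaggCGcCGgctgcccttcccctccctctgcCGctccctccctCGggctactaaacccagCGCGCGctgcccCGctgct
Ltbp1, chr17:75005279-75005528, plus strand: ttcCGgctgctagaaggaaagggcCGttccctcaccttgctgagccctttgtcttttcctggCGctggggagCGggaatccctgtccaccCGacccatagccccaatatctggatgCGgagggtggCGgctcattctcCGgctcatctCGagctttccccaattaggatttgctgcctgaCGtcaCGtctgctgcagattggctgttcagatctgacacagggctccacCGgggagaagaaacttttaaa
Inhba, chr13:16011601-16011850, plus strand: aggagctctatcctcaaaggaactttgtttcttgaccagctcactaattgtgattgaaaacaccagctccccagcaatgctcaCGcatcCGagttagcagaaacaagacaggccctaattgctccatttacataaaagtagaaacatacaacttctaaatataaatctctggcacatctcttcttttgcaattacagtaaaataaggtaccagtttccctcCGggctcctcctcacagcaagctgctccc
Tgfb1, chr7:25686752-25687001, plus strand: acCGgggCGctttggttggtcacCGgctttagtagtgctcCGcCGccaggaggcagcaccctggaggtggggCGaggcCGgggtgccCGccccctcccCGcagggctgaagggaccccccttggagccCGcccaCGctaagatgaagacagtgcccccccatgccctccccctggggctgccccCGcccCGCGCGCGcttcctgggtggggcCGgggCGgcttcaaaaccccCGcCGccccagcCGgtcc

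The promoter table matched 8 of the 10 genes, all but Tgfb3 and Tgfbr3, and where a gene had several starts the most upstream was taken. The windows held 15 CG dinucleotides in Tgfbi, 12 in Ltbp1, 3 in Inhba and 21 in Tgfb1. The remaining windows held 29 in Tgfbr1, 12 in Tgfbr2, 11 in Bmp4 and 8 in Tgfb2. The median over 27025 genes was 6, and 7 of the 8 windows were at or above it. Inhba was the exception: 29.6% of all windows held fewer than its 3. Among the 3 shown genes that were lower without Dnmt1, CG content thus ran from below to above the median. The motif GGGCGG, bound by Sp factors, was found on either strand in 4 of the 8 windows and in 33.0% of all windows. The motif CAGAC, a known Smad binding element, was found on either strand in 4 of the 8 and in 42.2% of all, among them 2 copies in Tgfbi, 2 in Tgfb2 and 1 in Ltbp1. The motif TATAAA was found on either strand in Inhba and Tgfb2, and in 13% of all windows. These letter matches describe the windows and are not binding sites.

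The deposited values were signal intensities on a linear scale, already scaled to 1 trimmed mean on every array, and a level can be set only against the same probe set on another array. Median signals lay between 41.9 and 48.8. Dnmt1, the targeted gene, gave 206.5, 74, 109.5 and 123.2 over the p53-Dnmt1-null arrays, all below the 695.6, 384.4 and 308.2 of the p53-null arrays. Each of these signals was above the median signal of its array. The genotypes differed by -1.77 on the log2 scale (limma adjusted p = 0.000281), and whether its probes lie in the deleted part is not known here, nor was p53 itself measured by a probe set used here. The label of the cells was checked against markers. Of 14 fibroblast markers that could be tested, 12 were lower in p53-Dnmt1-null cells, 1 was higher and 1 was not called, and their summed signals ran from 7353.8 to 12969.6 over the 4 p53-Dnmt1-null arrays against 29514.7 to 37418.0 over the 3 p53-null arrays. All 10 mesothelial markers had a higher call in the p53-Dnmt1-null arrays, with summed signals of 12382.0 to 20336.1 against 167.1 to 426.0. Of 9 epithelial junction markers on the array 5 could be tested, and 4 of these were higher. Of 10 macrophage markers 5 could be tested, and 3 were higher. Of 9 endothelial markers 2 could be tested, and 0 were called. The untested markers of these lists were too dim to pass the filter on any array of either genotype. Among the higher epithelial junction markers, Krt14, Dsp and Cdh1 differed by 7.29, 2.83 and 2.36 on the log2 scale. Their lowest p53-Dnmt1-null signals were 1187.1, 123.2 and 59.5, and their highest p53-null signals 3.3, 32.8 and 9.5. Epcam stood at 108.7 at 24 h of TSA but at 8 untreated, 18.8 at 48 h and 3.5 after removal in p53-Dnmt1-null cells. Of the 14 fibroblast markers, Postn and Lum lay below the median signal of the array on all 4 p53-Dnmt1-null arrays. Postn gave 10.5, 2.4, 2.2 and 16.8 after removal there, and both passed the filter only through the p53-null arrays. Of the higher markers, 8 mesothelial ones, all 4 epithelial junction ones and 1 macrophage one (Itgb2) passed only through the p53-Dnmt1-null arrays. Such markers could enter the test only if they differed. Fibroblast is thus the name the label gives, and the p53-Dnmt1-null arrays had mostly lower fibroblast markers and higher mesothelial ones. Most of the tested epithelial junction and macrophage markers were higher there too. Markers and the member genes below were called by the same genotype test, so the calls alone do not link them. The part of the markers in the differences of the member genes was not tested. In bulk RNA, fewer cells of a type and less RNA per cell cannot be told apart.

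Differences between genotypes were tested at each of 14012 probe sets whose signal passed the pooled median of 45.6 on at least 1 array, on the scale log2(signal + 11.4), with time of TSA in the model and limma's p-values adjusted over all probe sets. All 10 genes kept at least 1 probe set and 16 of the 19 probe sets passed. The 3 that did not were 2 of Tgfbr1 and 1 of Tgfbr2. Over all tested probe sets 17.6% were called higher and 19.3% lower in p53-Dnmt1-null cells at an adjusted p of 0.05, which is the background for counts of probe sets. Of the 16 probe sets 9 were lower, from 5 genes (Tgfbi, Ltbp1, Inhba, Bmp4 and Tgfb2), 0 were higher and 7 were not called. The same 9 were the probe sets whose 3 arrays per genotype did not overlap, all lower in p53-Dnmt1-null cells (background 22.5% lower and 21.2% higher). Tgfbi and Tgfb2 each gave more than 1 of the 9, and probe sets of 1 gene share its RNA, so these counts are not independent. Of the 9, 4 (that of Ltbp1 and 3 of Tgfbi) passed the filter only through the p53-null arrays, so they could enter the test only if they differed. Each p-value rests on how single arrays scatter, and the labels do not separate genotype from culture, so these cannot be told apart.

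**Figure D1:**
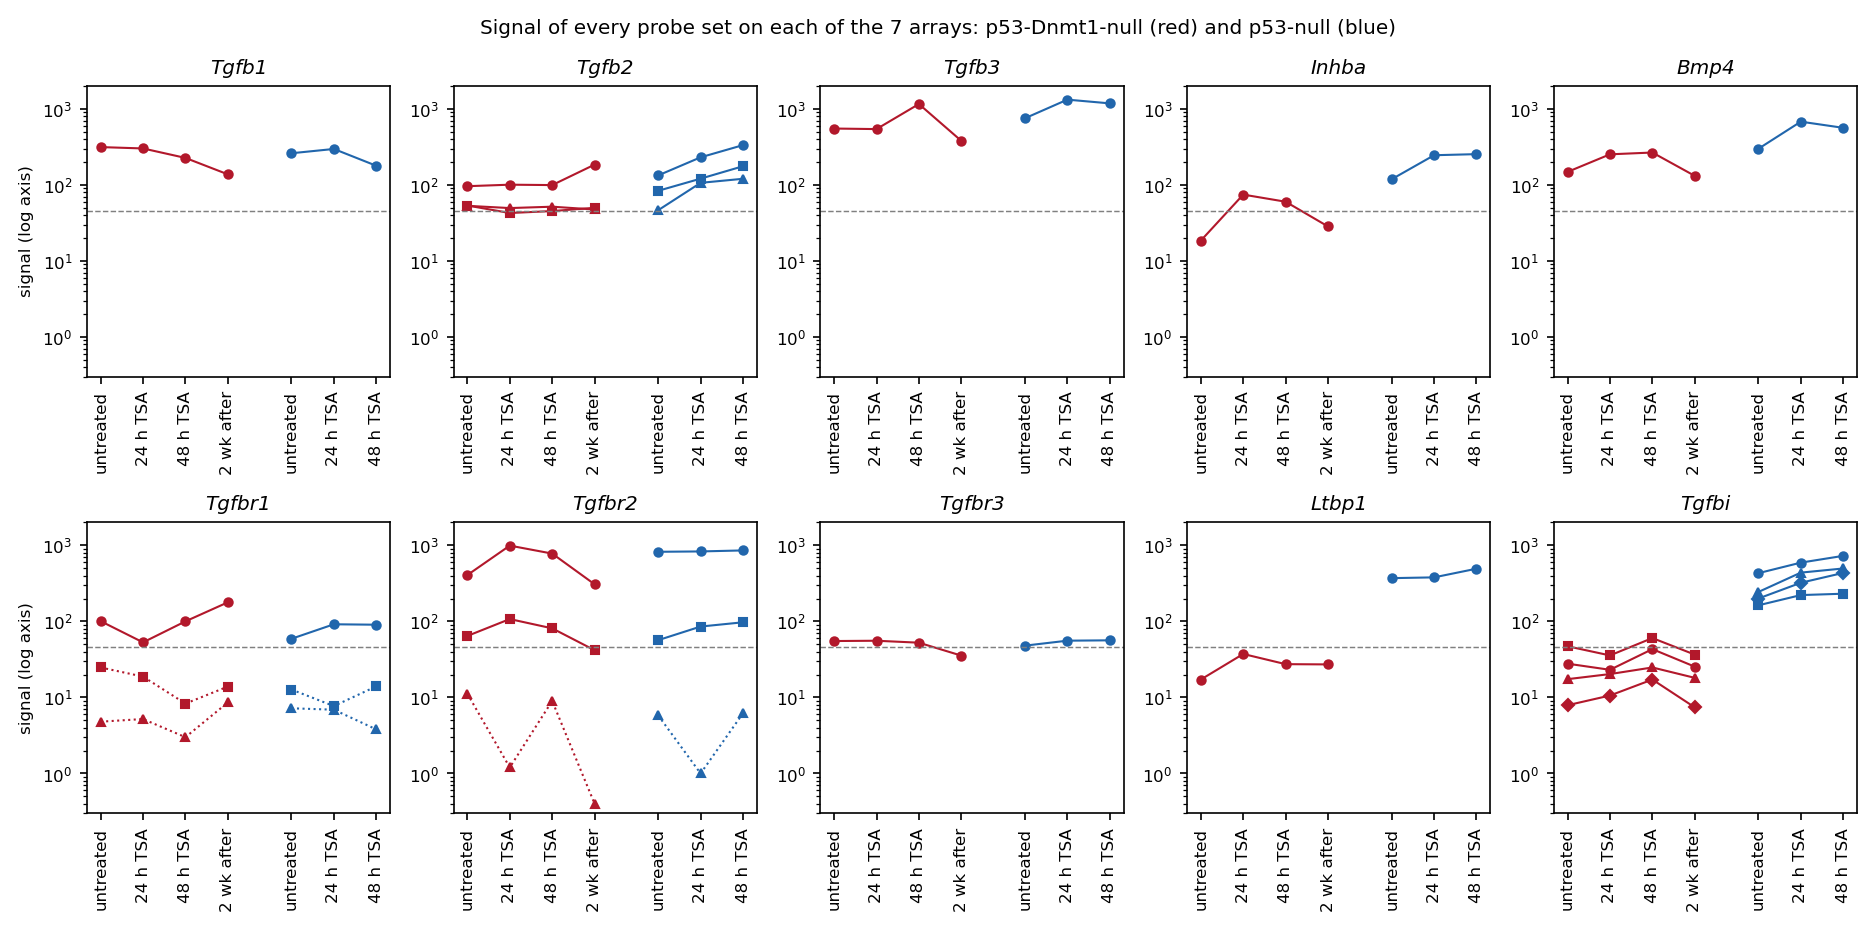
Signal (log axis) of each of the 19 probe sets on each of the 7 arrays, 1 panel per gene; red, 4 p53-Dnmt1-null arrays; blue, 3 p53-null arrays; each line is 1 probe set, dotted where it did not pass the filter, and the dashed line is the pooled median of 45.6. The red and blue lines are far apart in Ltbp1 and Tgfbi and at similar heights in Tgfb1 and Tgfbr3.

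Among the ligands, Inhba, which encodes the activin A subunit, was lower in p53-Dnmt1-null cells. Its signals in p53-Dnmt1-null cells were 18.5, 74.6 and 60.1 (untreated, 24 h and 48 h of TSA, the order used throughout) and 28.4 after removal, compared with 118.7, 245.7 and 254.0 in p53-null cells. All 4 p53-Dnmt1-null arrays lay below all 3 p53-null arrays, and the untreated and after-removal arrays lay below the pooled median. The genotype difference was -1.86 ± 0.19 in log2 units (SE over 3 pairs of arrays, limma adjusted p = 0.000152). It was -2.12 in the untreated pair, -1.58 at 24 h and -1.89 at 48 h, and over the pairs it was -1.38 with the offset at the pooled median.

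Bmp4, a ligand of the BMP branch, was also lower in p53-Dnmt1-null cells. It gave 148.3, 252.6 and 266.7, and 131.5 after removal, in p53-Dnmt1-null cells, compared with 298.9, 679.2 and 563.5 in p53-null cells. Every p53-Dnmt1-null array lay below every p53-null array, though the TSA arrays came close to the untreated p53-null array. The difference was -1.13 ± 0.18 in log2 units (SE, limma adjusted p = 0.0014), with -0.96, -1.39 and -1.05 at the 3 times.

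Tgfb2 had 3 probe sets, 2 of them called lower in p53-Dnmt1-null cells. The one with the highest signal, 1423250_a_at, gave 96.2, 100.7 and 99.5 in p53-Dnmt1-null cells and 184.9 after removal, compared with 133.4, 230.7 and 333.8 in p53-null cells. The p53-Dnmt1-null signals were level over 48 h of TSA and the after-removal array stood above the untreated p53-null one, while both TSA arrays of p53-null cells stood above the untreated one. Its difference was -1.06 ± 0.24 (SE, log2, limma adjusted p = 0.0091), made up of -0.43 untreated, -1.11 at 24 h and -1.64 at 48 h. Probe set 1450923_at gave 53.6, 42.7, 45.3 and 50 after removal in p53-Dnmt1-null cells, compared with 83.7, 120.9 and 176.1 in p53-null cells, a difference of -1.19 ± 0.25 (SE, log2, limma adjusted p = 0.0058). The third, 1450922_a_at, was not called at -0.62 ± 0.27 (SE, log2, limma adjusted p = 0.099). It gave 53.1, 49.6, 51.7 and 47.5 after removal in p53-Dnmt1-null cells, compared with 46.5, 106.5 and 120.4 in p53-null cells, so its untreated arrays were in the opposite order. Without the 48 h pair of arrays neither call held, with differences of -0.77 and -0.92 and adjusted p of 0.0909 and 0.0563. Without the untreated pair 1450922_a_at was called, at -1.01 (adjusted p = 0.00851).

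Tgfb1 and Tgfb3 were not called between genotypes. Tgfb1 gave 314.5, 301.7 and 226.5 in p53-Dnmt1-null cells, compared with 260.9, 297.1 and 178.6 in p53-null cells, and the groups overlapped. Its difference was 0.20 ± 0.17 in log2 units (SE, limma adjusted p = 0.396). Tgfb3 gave 551.5, 542.4 and 1158.7 in p53-Dnmt1-null cells and 379.7 after removal, compared with 752.5, 1323.5 and 1181.7 in p53-null cells. The 2 genotypes met at 48 h, where the difference was -0.03, against -0.44 untreated and -1.27 at 24 h. Over the 3 times it was -0.58 ± 0.22 (SE, limma adjusted p = 0.0678), with -0.85 (adjusted p = 0.0329) without the 48 h pair and -0.23 (adjusted p = 0.364) without the 24 h pair.

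The receptors were not called between genotypes by any probe set. Tgfbr2 encodes the type II TGF-beta receptor, the kinase that binds ligand first. Its probe set 1426397_at gave 407.1, 993.2 and 780.1 in p53-Dnmt1-null cells and 308.0 after removal, compared with 823.8, 832.6 and 858.5 in p53-null cells. The p53-null arrays were nearly level, and the p53-Dnmt1-null arrays were low untreated and after removal and at a like height with TSA. The difference over the 3 times was -0.29 ± 0.22 (SE, log2, limma adjusted p = 0.332), and it was -1.0 in the untreated pair alone, which has no replicate. A dimmer probe set, 1425444_a_at, gave 64.4, 107.4 and 81.1 in p53-Dnmt1-null cells and 41.8 after removal, compared with 56.7, 85.6 and 97.4 in p53-null cells, so its untreated arrays were not in that order.

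Tgfbr1, the type I receptor that phosphorylates Smads, rested on 1420895_at, with 100.8, 53 and 100.2 in p53-Dnmt1-null cells and 178.4 after removal, compared with 59.1, 91.7 and 90.5 in p53-null cells. The groups overlapped, and the difference was 0.04 ± 0.26 in log2 units (SE, limma adjusted p = 0.916). Its other probe sets, at 3.0 to 24.8 on all arrays, were below the pooled median throughout, as was the third probe set of Tgfbr2 at 0.4 to 11.2. Tgfbr3 encodes betaglycan, a co-receptor that presents ligand. It gave 55.2, 55.7 and 52.5 in p53-Dnmt1-null cells and 35.5 after removal, compared with 48.0, 55.8 and 56.4 in p53-null cells, all near the pooled median. Its difference was 0.03 ± 0.20 (SE, log2, limma adjusted p = 0.931).

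Ltbp1, a latent TGF-beta binding protein that holds TGF-beta in the matrix, was among the members with the largest genotype differences. It gave 17.2, 37.3 and 27.4 in p53-Dnmt1-null cells and 27.2 after removal, compared with 370.8, 379.6 and 493.6 in p53-null cells. All 4 p53-Dnmt1-null arrays lay below the pooled median and all 3 p53-null arrays far above it. The difference was -3.48 ± 0.21 in log2 units (SE, limma adjusted p = 8.4e-06), and 0.571% of tested probe sets had a lower value. Since the p53-Dnmt1-null signals were low, the size depended on the offset: it was -2.66 with the offset at the pooled median and -3.93 with an offset of 1.

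Tgfbi encodes a secreted matrix protein and is named for its induction by TGF-beta. It was lower in p53-Dnmt1-null cells by all 4 of its probe sets. The brightest, 1448123_s_at, gave 27.8, 23.1 and 43.2 in p53-Dnmt1-null cells and 25.4 after removal, compared with 431.1, 593.1 and 728.3 in p53-null cells. The genotypes did not overlap, and each p53-Dnmt1-null array was below the pooled median. The difference was -3.80 ± 0.20 (SE, log2, limma adjusted p = 3.87e-06), and -3.01 with the offset at the pooled median and -4.19 with an offset of 1. Probe sets 1415871_at and 1456250_x_at gave -3.78 ± 0.20 and -3.60 ± 0.21, with limma adjusted p of 4.47e-06 and 6.37e-06, and the first of these ran from -4.63 to -2.61 with the offset. The 4th, 1437463_x_at, gave a smaller difference of -1.88 ± 0.21 (limma adjusted p = 0.000211), from 47.1, 35.7, 60.4 and 36.6 in p53-Dnmt1-null cells, compared with 162.9, 222.0 and 231.4 in p53-null cells. The probe sets thus gave 1 direction and different sizes, and the suffix _x marks probes that can also match other transcripts.

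**Figure D2:**
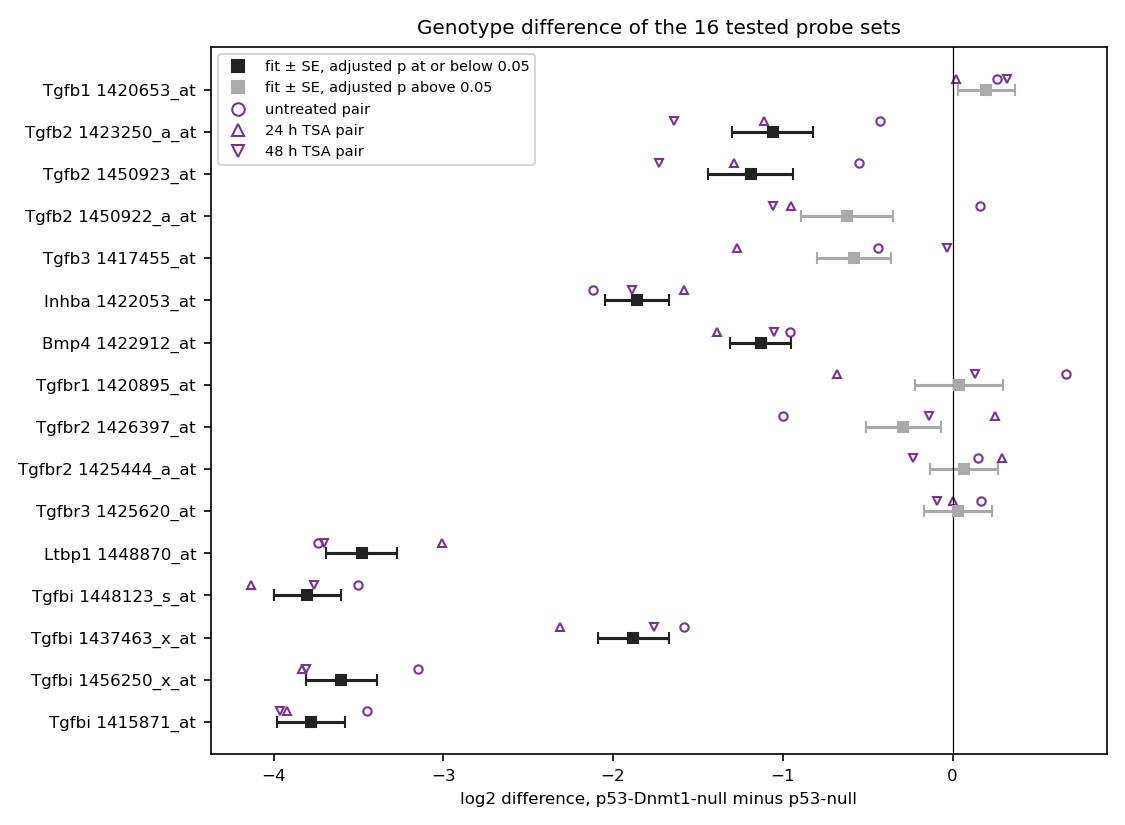
Log2 difference, p53-Dnmt1-null minus p53-null, for the 16 tested probe sets; squares with bars, limma fit ± SE over 3 arrays per genotype (black at an adjusted p of 0.05 or below, grey above); open symbols, the untreated, 24 h and 48 h pairs of single arrays. The squares of Ltbp1 at -3.48 and of 3 Tgfbi probe sets lie furthest left, and the receptors lie near 0.

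The other genes of the pathway were taken from lists by role, each gene by its brightest probe set. These lists too were chosen with earlier results of these data known. The 6 lists joined held 74 tested genes, of which 9 were higher, 34 lower and 31 not called. With each named gene taken the same way, 19.2% of 8298 tested genes were higher and 19.9% lower, which is the background for the counts of genes. Of the 34 lower genes, 6 passed the filter only through the p53-null arrays (Ltbp2, Bambi, Snai2, Postn, Msx1 and Msx2), and of the 9 higher, 4 passed only through the p53-Dnmt1-null arrays (Bmp6, Gdf10, Amhr2 and Pdgfb). These 10 could enter the test only if they differed. The median over all tested probe sets was 0.02 on the log2 scale, beside which each list's median is given. The members' own median over 10 genes was -0.82, with 5 lower and 5 not called.

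Genes of latency, activation and storage of TGF-beta had 7 of 10 tested genes lower in p53-Dnmt1-null cells, 0 higher and 3 not called, with a median of -1.40. Ltbp2, a relative of Ltbp1, gave 13.1, 31.9, 22.0 and 24.5 after removal in p53-Dnmt1-null cells, compared with 1079.9, 809.1 and 1183.6 in p53-null cells, a difference of -4.96 ± 0.25 (SE, log2, limma adjusted p = 3.38e-06). The gelatinase Mmp2 differed by -3.39, the thrombospondin Thbs1, a known activator of latent TGF-beta, by -3.21, and the fibrillin Fbn2 by -2.30. The other latency proteins were not lower throughout: Ltbp3 and Ltbp4 were not called, at -0.27 and 0.05. Secreted inhibitors and inhibitory proteins had 9 of 15 tested genes lower, 1 higher and 5 not called, with a median of -1.27. The BMP antagonist Grem1 differed by -3.42 ± 0.27 (limma adjusted p = 3.47e-05), the pseudoreceptor Bambi by -2.26 and the proteoglycan Fmod by -2.17. Dcn, another proteoglycan that binds TGF-beta, was the 1 higher gene, at 2.20 ± 0.39 (limma adjusted p = 0.00283).

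Of 32 tested known targets, 17 were lower, 3 higher and 12 not called, with a median of -0.50. The 4 called targets of largest fitted difference were periostin, Postn, at -6.93, the collagen Col1a2 at -3.66, tenascin C, Tnc, at -3.51, and, at -3.22, Snai2, a transcription factor of mesenchymal cells. Postn gave 10.5, 2.4, 2.2 and 16.8 after removal in p53-Dnmt1-null cells, so the size of its difference rests on dim signals. The 3 higher targets were Pdgfb at 1.49, Junb at 1.09 and Myc at 0.81. Of the 32 targets, 5 were also on the fibroblast marker list. The 7 tested Smads included the inhibitory Smad6 and Smad7. Of the 7, 1 was lower, Smad1 of the BMP branch at -0.59 ± 0.18 (SE, log2, limma adjusted p = 0.0304), 0 were higher and 6 were not called, with a median of 0.10. Of 6 other receptors 2 were lower, Acvr2a at -1.29 and Acvr1 at -0.97. Of the others, 3 were not called and 1 was higher, Amhr2 at 1.98, which gave 53.6, 18.9 and 63.3 in p53-Dnmt1-null cells and 2.6 after removal, compared with 2.6, 1.3 and 2.1 in p53-null cells. The list's median was -0.41. Of 9 other ligands 4 were higher (Bmp6 at 1.72, Gdf10 at 1.14, Inhbb at 1.04 and Lefty1 at 0.81), 0 were lower and 5 were not called, with a median of 0.31. Bmp6 gave 44.4, 71.6, 89.3 and 19.1 after removal in p53-Dnmt1-null cells, compared with 12.4, 14.6 and 9.5 in p53-null cells, while Lefty1 was above the pooled median on all 7 arrays.

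**Figure D3:**
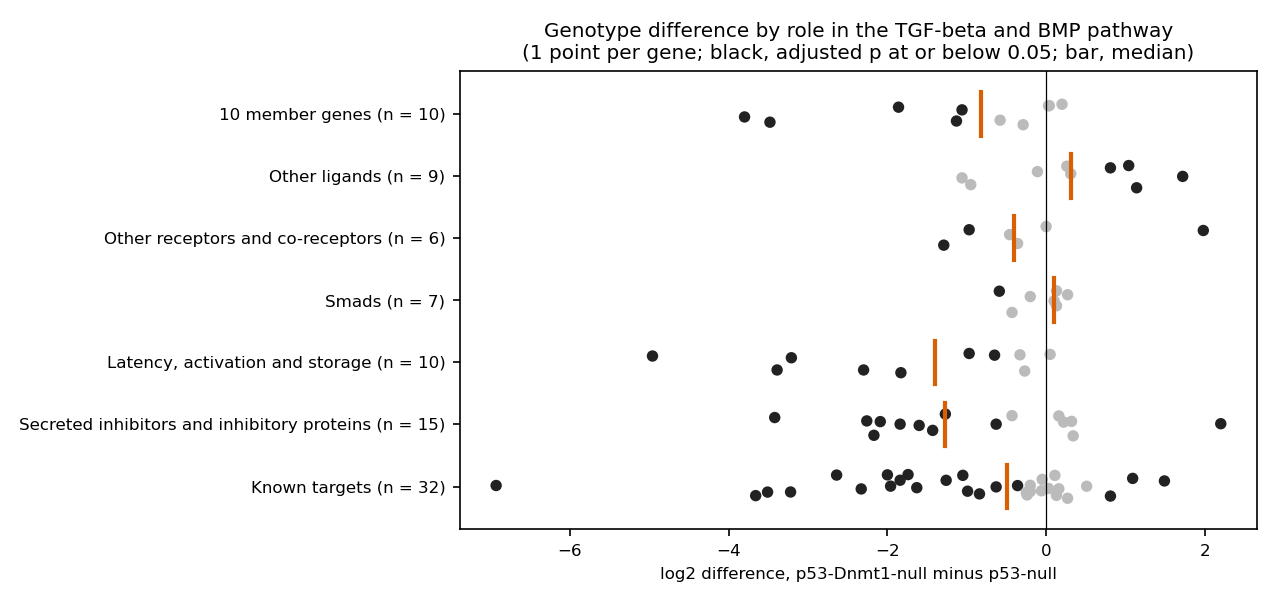
Log2 difference, p53-Dnmt1-null minus p53-null, of the 10 member genes and of the tested genes of 6 lists by role, 1 point per gene by its brightest probe set; black points had a limma adjusted p of 0.05 or below, grey points did not, vertical bars are medians and the vertical spread of points has no meaning. Latency genes and inhibitors have medians of -1.40 and -1.27, and Smads and other ligands of 0.10 and 0.31.

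The second comparison was the change with TSA, and no member passed its test. Averaged over genotypes, limma called 2 of 14012 probe sets higher (0.0143%) and 0 lower, and 0 of the 16 member probe sets, with 2054 of all probe sets and 7 of the 16 at an unadjusted p under 0.05. Inhba had the largest value, 1.20 ± 0.21 in log2 units (SE, limma adjusted p = 0.0888), and stood above its untreated array in 4 of 4 TSA arrays. Without the 24 h pair its adjusted p was 0.0399, and over all alternatives it ran from 0.0399 to 0.278. Bmp4 followed at 0.89 ± 0.19 (limma adjusted p = 0.136), also above untreated in 4 of 4. Tgfb3 gave 0.62 ± 0.27 (adjusted p = 0.334), and 0.85 (adjusted p = 0.0451) without the 24 h pair. The lists of other pathway genes had 0 called in either direction, with medians from -0.10 for other ligands to 0.27 for latency genes, beside 0.01 for all probe sets.

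By direction alone, 8 of the 16 probe sets, from 6 genes, were above the untreated array of their genotype in all 4 TSA arrays (background 17.0%), and 0 were below (background 18.6%). The genes were Inhba, Bmp4, Tgfb2, Tgfbr2, Ltbp1 and Tgfbi. Tgfb2 was among them only through 1423250_a_at, at 0.06 and 0.04 on the log2 scale in p53-Dnmt1-null cells. The other Tgfb2 probe sets were below untreated at both times there. Tgfbi was not among them by its brightest probe set, 1448123_s_at, or by 1437463_x_at. In p53-Dnmt1-null cells these gave -0.18 and -0.31 at 24 h. The other Tgfbi probe sets were above untreated in all 4 TSA arrays. Probe sets of 1 gene share its RNA, and the 2 TSA arrays of a genotype share 1 untreated array, so these counts are not independent. In p53-Dnmt1-null cells 8 probe sets were above untreated at both times (background 32.5%), 4 below (background 37.2%) and 4 on either side. In p53-null cells 15 were above at both times (background 39.6%) and 0 below (background 34.0%). The exception was Tgfb1, at 260.9, 297.1 and 178.6. 3 probe sets (Tgfb2 1450923_at and 1450922_a_at, Tgfbr1 1420895_at) lay below untreated at both times in p53-Dnmt1-null and above in p53-null cells (background 10.2%), and 0 ran the other way (background 6.16%).

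By a size rule of at least 2-fold at both times, 1 probe set of the 16 was higher in p53-Dnmt1-null cells with TSA (background 1.71%) and 0 lower (background 0.378%). That was Inhba, at 1.52 after 24 h and 1.26 after 48 h on the log2 scale. In p53-null cells 1 was higher (background 1.51%) and 0 lower (background 1.03%), Tgfb2 probe set 1450922_a_at at 1.03 and 1.19, and Inhba was just outside the rule there at 0.98 and 1.03. With the offset at the pooled median neither passed. The contrasts of TSA within each genotype, from the fit to all 7 arrays, called 0 of 14012 probe sets, with 1136 at an unadjusted p under 0.05 in p53-Dnmt1-null cells and 1206 in p53-null cells.

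TSA arrays of p53-Dnmt1-null cells also had higher 18S ribosomal RNA control signals, 2549.1 at 24 h and 1292.1 at 48 h against 688.1 untreated at the 3' end, beside 337.5 and 228.7 against 194.0 in p53-null cells. The part of this in the TSA values was not tested. Summed fibroblast markers were 11980.7 and 12969.6 at 24 and 48 h against 10297.3 untreated in p53-Dnmt1-null cells, and 33057.1 and 37418.0 against 29514.7 in p53-null cells.

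**Figure D4:**
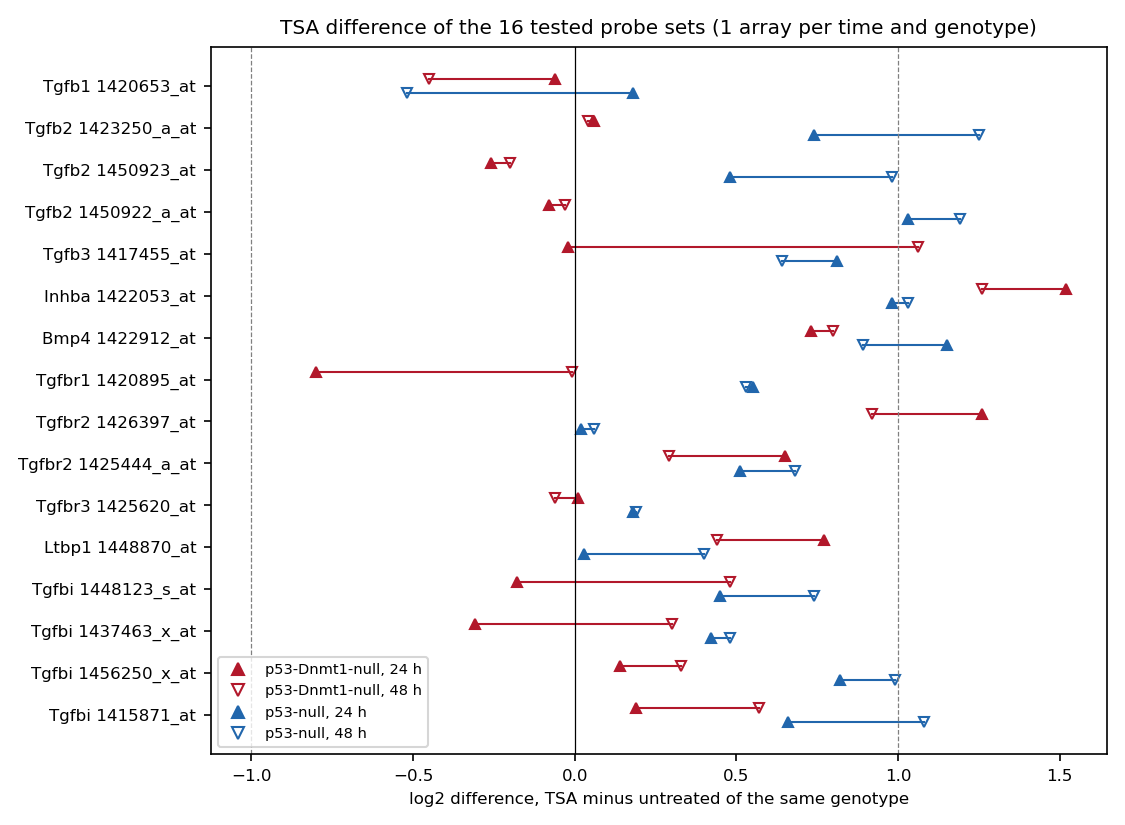
Log2 difference of each TSA array from the untreated array of its genotype for the 16 tested probe sets; red, p53-Dnmt1-null; blue, p53-null; filled triangles, 24 h; open triangles, 48 h; dashed lines, 2-fold. Inhba and Bmp4 lie right of 0 in both genotypes, the Tgfb2 symbols lie right of 0 mainly in blue, and Tgfbr2 1426397_at lies far right only in red, at 1.26 and 0.92.

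Whether TSA acted differently in the 2 genotypes was tested as an interaction, and limma called 0 of 14012 probe sets, with 480 at an unadjusted p under 0.05 and 2 of the 16 members among them. The first was Tgfb2 1450922_a_at, whose TSA difference was lower in p53-Dnmt1-null cells by -1.16 ± 0.43 (SE, log2, limma adjusted p = 0.995). The other Tgfb2 probe sets gave -0.95 ± 0.46 and -0.96 ± 0.47. The second was Tgfbr2 1426397_at, at 1.05 ± 0.40 (limma adjusted p = 0.995), while 1425444_a_at of the same gene gave -0.13 ± 0.45. Inhba and Bmp4 gave 0.39 ± 0.42 and -0.26 ± 0.43. With SEs of 0.40 to 0.58, the test does not show that the genotypes responded alike.

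The last comparison set the after-removal array against the untreated array of p53-Dnmt1-null cells, 1 array each and with no replicate check. By the 2-fold rule 1 of the 16 probe sets was lower (background 8.44%) and 0 were higher (background 6.73%). That was Tgfb1, at 137.7 after removal, its lowest value of the 7 arrays, against 314.5 untreated, a difference of -1.13 on the log2 scale, and with the offset at the pooled median it no longer reached 2-fold. On the after-removal array the 18S control stood at 93.6 against 688.1 untreated, the Actb control at 7904.8 against 5421.2 (both at the 3' end), and summed fibroblast markers at 7353.8 against 10297.3. The part of these in the after-removal values was not tested. Of the genes above untreated on all 4 TSA arrays, Inhba was at 28.4 after removal against 18.5 untreated, Bmp4 at 131.5 against 148.3, and Tgfbr2 1426397_at at 308.0 against 407.1, each nearer to the untreated than to either TSA array. Ltbp1, at 27.2, lay at its 48 h signal of 27.4. Tgfbr1 1420895_at was at 178.4 against 100.8, the highest of its 7 values, a difference of 0.76. Tgfb2 1423250_a_at was at 184.9 against 96.2, a difference of 0.87, but the other Tgfb2 probe sets gave -0.08 and -0.13. The genes that were dim in untreated p53-Dnmt1-null cells were dim after removal too, Ltbp1 at 27.2 against 17.2 and Tgfbi 1448123_s_at at 25.4 against 27.8, where untreated p53-null cells had 370.8 and 431.1.

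Over the 7 arrays the members fell into different patterns, described by Pearson's r of the log2 values of each gene's brightest probe set. Ltbp1 and Tgfbi correlated at 0.98, Inhba and Bmp4 at 0.97, and Inhba and Ltbp1 at 0.92. Tgfb1 had values of 0.00 and 0.01 with Ltbp1 and Tgfbi, and Tgfbr1 and Tgfbr2 correlated at -0.82. The 7 points share 2 genotypes and 1 treatment, so a shared genotype difference alone gives a high value. Among named genes that spanned at least 2-fold over the arrays, 5684 were compared with each member (5685 with Tgfbr3). The nearest to Tgfbi was Tnc (r = 0.998), with 77.4, 78.9, 108.5 and 82.3 after removal in p53-Dnmt1-null cells, compared with 968.9, 1132.2 and 1246.5 in p53-null cells. The nearest to Ltbp1 was the natriuretic peptide receptor Npr2 (r = 0.998), to Inhba Hsd17b11 (r = 0.993) and to Bmp4 Cdkn2a (r = 0.991), the last with 159.8, 365.3, 330.4 and 137.2 after removal in p53-Dnmt1-null cells, compared with 372.0, 888.8 and 679.7 in p53-null cells. For Tgfb1, Tgfb2 and Tgfb3 they were Gpaa1 (r = 0.984), Ccdc71l (r = 0.991) and Mapre3 (r = 0.964). For Tgfbr1, Tgfbr2 and Tgfbr3 they were Dnm1l (r = 0.988), Ifitm10 (r = 0.981) and Ccdc28a (r = 0.984). Each nearest gene has the highest r of all genes compared, on 7 points, so a high value can arise without any relation. Tgfbr3 stood at 48.0 to 56.4 except for 35.5 after removal, so its r rests largely on 1 array.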

How the data were processed

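RNA of cells labelled as mouse embryonic fibroblasts was measured on 7 arrays of an Affymetrix platform, 1 array per group. The deposited values are signal intensities on a linear scale, made by the authors with MAS5 per the submitters' processing notes. Neither a version nor a scaling target is stated there. The 2% trimmed mean was 150.1 on every array.

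Probe sets were named through the platform's annotation, 20393 with 1 symbol, 691 with several and 1606 unlisted, and 20364 symbols were updated through Entrez identifiers to RefSeq (GRCm38.p6). No probe set with several symbols held a member. The 64 control probe sets were left out. Values were analysed as log2(signal + 11.4), the offset being the pooled 25th percentile, which understates changes of dim genes. Probe sets above the pooled median of 45.6 on at least 1 array were tested, 14012 in all.

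Tests used limma 3.58.1 (R 4.3.3), with a variance trend on intensity. Benjamini-Hochberg adjusted p-values were called at 0.05. The genotype model held genotype and time over 6 arrays (2 residual degrees of freedom, prior 6.67), so that the departure from additivity is its error. TSA averaged over genotypes used 24 h and 48 h as 1 level (3 residual degrees of freedom, prior 6.08). TSA by genotype used all 7 arrays (2 residual degrees of freedom, prior 6.31), and there the untreated arrays borrow the spread of the TSA arrays. The scripts were tested on simulated data. Precision is limited by how few arrays there are.

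Of each list, at most the 4 called genes with the largest genotype difference were to be named. Ltbp3, Ltbp4, Msx1, Msx2, Pdgfb, Junb, Myc, Smad6, Smad7 and Lum were named after their values were seen. For each member the gene with the highest Pearson's r was named. The members and lists were chosen with earlier results of these data known. Alternatives covered the offset, the filter, quantile normalization, the trend, 1 probe set per gene, and the arrays in the fit.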

Additional observations from a re-analysis of the deposited data

Results flagged for a closer look

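3 probe sets stood below the untreated array at both TSA times in p53-Dnmt1-null cells and above it at both times in p53-null cells, as 10.2% of all tested probe sets did. For Tgfb2 1450923_at the difference of the TSA effects, p53-Dnmt1-null minus p53-null, was -0.96 on the log2 scale, and for Tgfb2 1450922_a_at it was -1.16. For Tgfbr1 1420895_at it was -0.94. This pattern of opposite directions was itself not tested, the interaction fit called none of the 3 (limma adjusted p = 0.995 for each, with 0 of 14012 probe sets called and 480 at an unadjusted p under 0.05), and the p53-Dnmt1-null differences were -0.26 to -0.03 for the Tgfb2 probe sets, and -0.80 at 24 h and -0.01 at 48 h for Tgfbr1. The brightest Tgfb2 probe set, 1423250_a_at, gave 0.06 and 0.04 there and was not among the 3.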

How the results depend on the processing

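Of 366 alternative values for single member probe sets, 352 kept their direction and their side of the threshold, 6 crossed the threshold and 8 reversed. The reversals were all of uncalled values. Between genotypes Tgfbr1 1420895_at gave -0.0043 without the 48 h pair and -0.27 without the untreated pair, Tgfbr2 1426397_at 0.06 and Tgfbr3 -0.04 without the untreated pair, and Tgfbr2 1425444_a_at -0.04 without the 24 h pair. With TSA averaged, Tgfb1 gave 0.06 and Tgfbr1 -0.13 without the 48 h pair. For TSA by genotype, Inhba gave -0.03 with the offset at the pooled median. The genotype calls of Tgfbi, Ltbp1, Inhba and Bmp4 held under every alternative run, with Tgfbi 1415871_at from -4.63 to -2.61, Ltbp1 from -3.93 to -2.66, both ends set by the offset, Inhba from -2.13 to -1.38 and an adjusted p of at most 0.0109, and Bmp4 from -1.22 to -1.0 and at most 0.0353.

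Without the 48 h pair, which leaves 4 arrays, 1323 probe sets were higher and 1578 lower between genotypes, against 2464 and 2701. For TSA averaged, 2 probe sets were higher in the fit reported, and 80 higher and 51 lower without the 48 h pair, 137 and 105 without the 24 h pair (2 member genes higher), 1 higher with the offset at the pooled median, and 0 with no filter or no intensity trend. In p53-Dnmt1-null cells TSA gave 1 higher probe set by limma with the offset at the pooled median or no trend. The causes of these shifts were not tested.

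The 2-fold counts depended on the offset, which by its construction shrinks the ratios of dim probe sets. In p53-Dnmt1-null cells with TSA they were 240 higher and 53 lower, and became 84 and 10 with the offset at the pooled median, 409 and 131 with an offset of 1, 761 and 742 at 24 h alone and 395 and 149 at 48 h alone. The lower count was 108 with no filter and 32 with 1 probe set per gene. Member genes higher there were 1, then 0 with the offset at the pooled median and 2 at either time alone. In p53-null cells they were 212 higher and 144 lower, and became 67 and 60 with the offset at the pooled median, 394 and 226 with an offset of 1, 451 and 260 at 24 h alone and 649 and 448 at 48 h alone, with 93 lower for 1 probe set per gene. Member genes higher there were 1, then 0 with the offset at the pooled median, quantile normalization or 1 probe set per gene, 2 with an offset of 1 or at 24 h alone, and 3 at 48 h alone. After removal, 943 and 1183 became 448 and 398 with the offset at the pooled median, with 0 member genes lower. The genotype model already pairs arrays by TSA time, and without the time term 5 member genes were lower, as with it. No block by replicate number could be fitted because each group held 1 array and the labels number none.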
